A study of Mus musculus with 19 samples.

Results

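Wild-type (WT) neural progenitor cultures from the mouse cortex fell into 2 library sets, and set 2 was compared with set 1 over all genes of an RNA-seq count table. The sets are given by a prefix in the library names, and the WT columns were taken as the names give them, so the comparison holds 6 of the 19 samples of the series, 3 in each set. No Mettl8 knockout library entered any value. The labels give all 6 the same description: WT progenitors of cerebral cortex at embryonic day 17.5, grown on Matrigel in serum-free medium with the B27 and N2 supplements, bFGF and EGF, and passaged with Accutase. The labels do not say whether the sets differ in animals, culture, passage, date or library preparation, so a difference in the state of the cells and a technical difference cannot be told apart here. The libraries were made from total RNA by the SMART-seq2 method. Below, set 1 holds replicates 1, 2 and 3, set 2 holds replicates 4, 5 and 6, and the values of a gene are given in that order.

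Cortical progenitors at this stage are radial glia and their descendants, which first make neurons and later astrocytes and oligodendrocytes. In culture, bFGF and EGF keep them dividing through the ERK kinases, and cells that leave this state begin to express genes of the glial or neuronal lineages. Their metabolism is also responsive: low oxygen stabilises hypoxia-inducible factors, which raise glucose uptake and glycolysis, while astrocytes and resting stem cells rely more on oxidation of fatty acids.

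Each library held between 15096888 and 18863781 counts, and 15957 to 16575 genes had at least 1 read. Of 13 mitochondrial mRNAs 6, among them mt-Co2, mt-Co3 and mt-Atp6, are listed at 0 in all 6 libraries, and the other 7 took 2.35% to 2.49% of the counts in set 1 and 2.04% to 2.11% in set 2, and the 100 most abundant genes took 21.2% to 22.3%. Set 1 and set 2 lay apart on the main axis of a principal component analysis, which carried 57.2% of the variance. The median absolute log2 difference between a library of one set and a library of the other was 0.30 to 0.35 over 9 pairs, against 0.18 to 0.22 within set 1 and 0.17 to 0.20 within set 2. The progenitor genes Sox2, Sox9, Nes and Fabp7 were present in all 6 libraries. Xist, which silences one X chromosome in female cells, was at 149 to 186 CPM in set 1 and 207 to 230 CPM in set 2 and was called higher (log2 fold change 0.38, edgeR adjusted p = 0.0061). The Y-linked genes Ddx3y and Kdm5d had reads in replicate 3 alone, at 2.77 and 1.65 CPM.

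Levels below are CPM, counts relative to library size after scaling by the trimmed mean of M values and not divided by gene length, fold changes are set 2 over set 1 on the log2 scale, and a gene was called at a Benjamini-Hochberg adjusted p under 0.05 in edgeR's quasi-likelihood test. Of 13392 genes tested, 3561 were called (26.6%). Of these, 1763 were higher in set 2 (13.2% of genes tested) and 1798 were lower (13.4%). A change of at least 1 on the log2 scale was called upward for 569 genes (4.25%) and downward for 334 (2.49%). The median of all genes lay at -0.0025. Among the called genes, 1723 of the higher and 1733 of the lower had no overlap between the sets. With so few libraries such separation largely follows from the call and adds no support to it. The calls were spread over many genes in both directions, with the larger changes more often upward.

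**Figure D1:**
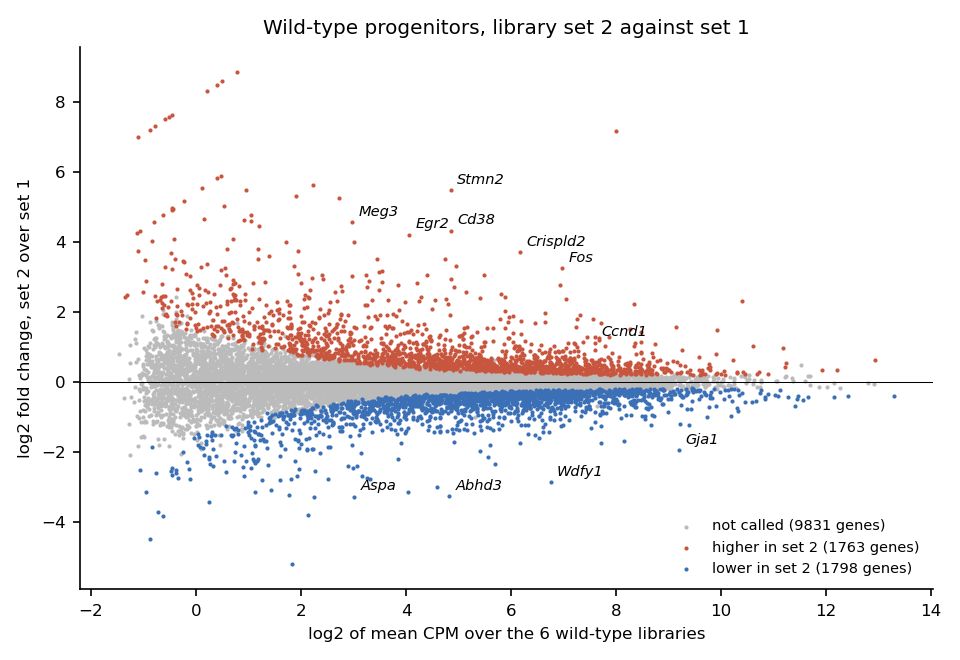
Each point is 1 of 13392 genes tested, with the log2 of its mean CPM over the 6 libraries on the x axis and the log2 fold change of set 2 over set 1 on the y axis. Red and blue points are the 1763 genes called higher and the 1798 called lower. Changes of more than 2 on the log2 scale are seen in both directions, and Stmn2 at 5.49 and Gja1 at -1.96 are among the genes labelled.

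Among genes with at least 10 CPM in one set, those with large changes upward included Stmn2, which encodes a microtubule regulator of growing neurites (chromosome 3, 8509527 to 8561604 in RefSeq GRCm38.p6). Its level was 1.54, 0.91 and 1.32 CPM in set 1 and 46.3, 48.8 and 74.9 CPM in set 2. Its log2 fold change was 5.49 (SE 0.241, edgeR adjusted p = 2.35e-09). The imprinted long noncoding RNA Meg3 (chromosome 12, 109540996 to 109571729) was at 0.60, 0.57 and 0.72 CPM against 13.6, 10.5 and 21.2 CPM. Crispld2, a secreted protein, was at 10.1, 9.83 and 10.9 CPM against 133, 146 and 123 CPM. In each of these genes the lowest library of set 2 was several times above the highest of set 1. The other genes of this group were Sla at 5.25, Cd38, an enzyme that consumes NAD, at 4.32, Egr2 at 4.21, Hecw1 at 4.0, Tm4sf1 at 3.52, Fam135b at 3.51, Dkk3 at 3.31 and Fos at 3.25 on the log2 scale. Sla (0.66, 0.28 and 0 CPM, SE 0.495) and Hecw1 (0.33, 1.65 and 0.86 CPM, SE 0.395) had few reads in set 1. The size of their change is therefore uncertain.

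Among genes with at least 10 CPM in one set, those with large changes downward began with Aspa, which encodes the aspartoacylase of oligodendrocytes and fell by 3.29 (SE 0.218, edgeR adjusted p = 8.43e-08) from 15.1, 16.3 and 12.6 CPM to 1.31, 1.48 and 1.68 CPM. Abhd3, which encodes a phospholipase, fell by 3.27, and the zinc transporter Slc39a12, which is abundant in astrocytes, fell by 3.16. Wdfy1, an endosomal adaptor, had the most reads of them, at 147, 277 and 145 CPM in set 1 and 22.5, 25.8 and 29.8 CPM in set 2. Replicate 2 was the highest library for Wdfy1, and the sets were far apart in Aspa and Wdfy1 alike. Further down lay 9630028B13Rik at -3.02, the lens filament gene Bfsp2 at -2.78, Olfml1 at -2.77, the olfactory receptor gene Olfr287 at -2.74, Fbp1, an enzyme of gluconeogenesis, at -2.71, Svep1 at -2.48, the potassium channel gene Kcnn2 at -2.41 and Rph3a at -2.40.

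Astrocyte genes were lower in set 2. This list and those below were chosen with earlier results of these data known, so their counts describe these libraries only. Of 20 listed markers, all of which passed the filter on low counts, 16 were called lower (80%, against 13.4% of all genes) and 0 higher. The median log2 fold change was -0.64, and 13 to 15 markers were called lower when a library was left out. Gja1, which encodes the gap junction protein connexin 43 of astrocytes and radial glia (chromosome 10, 56377300 to 56390419), was at 869, 1182 and 748 CPM in set 1 and 181, 290 and 247 CPM in set 2 (933 ± 224 against 239 ± 54.9, SD, n = 3 each). It fell by 1.96 (SE 0.164, edgeR adjusted p = 8.85e-07), and every library of set 1 was above every library of set 2. In bulk samples, fewer cells of a type and less RNA per cell cannot be told apart.

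The second astrocyte connexin, Gjb6, was at 5.39, 9.03 and 10.3 CPM against 0.07, 1.22 and 0.36 CPM, and fell by 3.81 (SE 0.498, edgeR adjusted p = 5.75e-05). The water channel gene Aqp4 was at 547, 650 and 501 CPM against 208, 265 and 253 CPM, a log2 fold change of -1.23. Replicate 4 had the lowest level of set 2 for all these genes. S100b at -1.30, the lipid carrier gene Apoe at -1.10, the glutamate transporter gene Slc1a2 at -0.75 and the glycolytic astrocyte gene Aldoc at -0.49 were also called lower. Gfap, the intermediate filament of mature and reactive astrocytes, was at 110, 107 and 71.5 CPM against 58.5, 102 and 141 CPM, so its sets overlapped and no call was made (0.06, SE 0.228, edgeR adjusted p = 0.878).

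Of 16 tested oligodendrocyte lineage genes, where 18 had been listed, 9 were called lower and 0 higher, with a median of -0.56. Enpp6, a marker of newly forming oligodendrocytes, was at 44.7, 84.4 and 98.2 CPM in set 1 and 4.90, 32.0 and 27.2 CPM in set 2 (log2 fold change -1.81, SE 0.419, edgeR adjusted p = 0.0051). It was not called by DESeq2 (adjusted p = 0.0686). Cnp, a myelin enzyme, fell by 1.23 with less spread, from 102, 109 and 97.8 CPM to 37.0, 44.8 and 49.3 CPM. Within set 2, replicate 4 was the lowest for Enpp6 and Cnp. Mbp, the myelin basic protein gene, was at -1.22 (edgeR adjusted p = 0.014), a call lost without replicate 2 (adjusted p = 0.0616).

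Genes that mark resting neural stem cells had 8 of 17 tested members lower and 1 higher, with a median of -0.21. The adhesion receptor gene Vcam1, which holds adult stem cells in their niche, was at 268, 290 and 257 CPM against 119, 164 and 144 CPM (log2 fold change -0.93, edgeR adjusted p = 1.43e-05), and the sets did not overlap. Id4, an inhibitor of proneural factors, fell by 1.60, while Nfib, a transcription factor of gliogenesis, was the 1 higher member at 0.43. Of the listed genes 5, among them Slc1a2 and Aldoc, are also on the astrocyte list.

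Radial glia and stem cell genes moved in both directions, with 7 of 19 tested members higher, 4 lower and a median of 0.08. The intermediate filament gene Vim was at 235, 165 and 226 CPM against 462, 425 and 456 CPM (log2 fold change 1.10, SE 0.108, edgeR adjusted p = 4.6e-06). The lipid-binding protein gene Fabp7, which had the most reads of the list, was at 5835, 5974 and 6663 CPM against 8843, 9652 and 9751 CPM. Both had all libraries of set 2 above those of set 1. Hes1, a Notch effector, at 1.23, the matrix gene Tnc at 1.12 and the filament gene Nes at 0.71 were also called higher. Hes5, the other main Notch effector of progenitors, was called lower at -0.89. The transcription factor genes that define these cells were not called: Sox2 was at -0.22 (edgeR adjusted p = 0.119), Sox9 at -0.10 and Pax6 at -0.16.

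Neuronal genes were higher in set 2, with 10 of 15 tested members called higher, 1 lower and a median of 0.92. Beside Stmn2, the transcription factor gene Neurod6 of projection neurons was at 5.00, 5.34 and 3.29 CPM against 24, 32.6 and 40.8 CPM (log2 fold change 2.83, edgeR adjusted p = 3.63e-07). Snap25, a protein of synaptic vesicle release, was at 24.7, 32.5 and 26.0 CPM against 63.6, 49.5 and 70.9 CPM (2.21-fold higher by means, edgeR adjusted p = 4.58e-05), and the tubulin gene Tubb3 rose by 0.92. All 3 libraries of set 2 were above set 1 in these genes. The lower member was Mtap2, the gene of the microtubule-associated protein MAP2, at 2109, 2293 and 1915 CPM against 1528, 1571 and 1544 CPM. Mtap2 made up most of the summed level of the list, which was therefore lower in set 2 (2251 to 2326 CPM) than in set 1 (2346 to 2704 CPM) although most members were higher. Dcx, a marker of young neurons, was at 0.43 and missed the threshold (edgeR adjusted p = 0.0575), a call gained without replicate 4 (adjusted p = 0.0032).

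Of 5 tested genes of intermediate progenitors, 1 was called, the antiproliferative gene Btg2, at 472, 465 and 469 CPM against 314, 301 and 305 CPM (log2 fold change -0.61). Of 12 listed interneuron lineage genes only 4 were tested, and 2 of these were higher (1 without replicate 2, 5 or 6), against 13.2% of all genes. Dlx1, Dlx2, Dlx5, Dlx6, Nkx2-1, Lhx6, Sp9 and Gsx2 had too few reads to be tested. The GABA-synthesising enzyme gene Gad2 was higher by 2.31 from a low level (1.15, 1.36 and 0.79 CPM against 3.59, 8.63 and 4.32 CPM). Gad1 was not called (-0.21). Markers of other cell types were few. Of 12 microglial markers 7 had no read in any library, among them Cx3cr1, Tmem119 and Aif1, and the summed level was 1.76 to 3.01 CPM in set 1 and 5.22 to 6.92 CPM in set 2. The 1 tested microglial marker, the purinergic receptor gene P2ry12, was higher at 1.35. Endothelial and mural markers had 0 of 4 tested members called and a summed level of 9.09 to 14.6 CPM against 11.4 to 13.8 CPM, with Cdh5 and Tie1 at 0. Ependymal and erythroid markers had 0 of 3 and 0 of 1 called. Among fibroblast markers the fibronectin gene Fn1 was higher (1.24), and Pdgfra, which oligodendrocyte precursors also express, was lower (-0.37), a call lost without replicate 1, 2, 4 or 5 (adjusted p = 0.0624, 0.224, 0.191 and 0.0595). The part of these cell types in the other results was not tested.

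**Figure D2:**
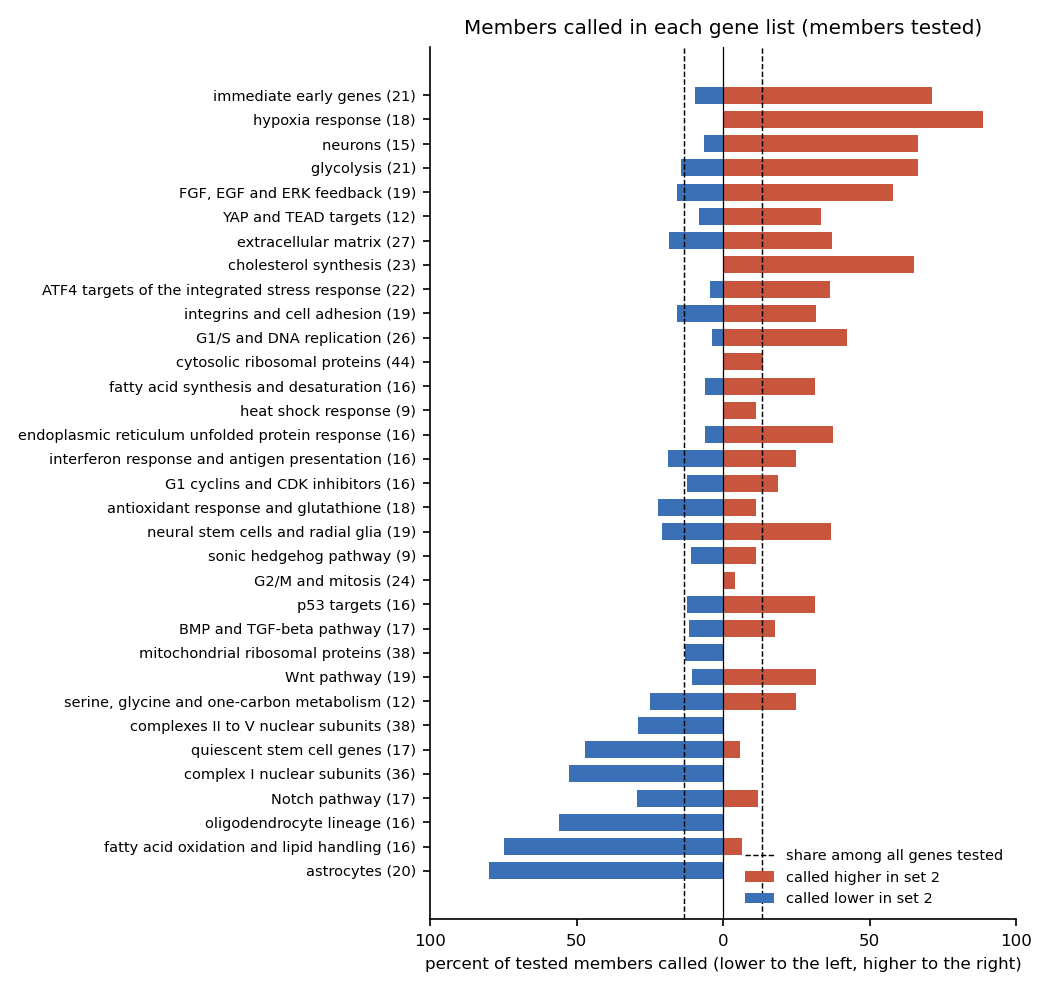
For each gene list of at least 9 tested members (number in brackets), the bar to the right is the percent called higher in set 2 and the bar to the left the percent called lower, ordered by median log2 fold change. Dashed lines mark the shares among all genes tested, 13.2% higher and 13.4% lower, and the hypoxia, immediate early, glycolysis and neuron lists reach farthest right, with astrocyte and fatty acid oxidation genes farthest left.

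Genes that respond to low oxygen were higher in set 2 almost without exception. Of 18 listed members, all tested, 16 were called higher and 0 lower, with a median of 1.42, and the count was 16 whichever library was left out. Slc2a3, the neuronal glucose transporter, was at 89.5, 81.9 and 84.0 CPM against 271, 295 and 320 CPM (log2 fold change 1.79, SE 0.0851, edgeR adjusted p = 3.91e-09). Bnip3, which marks mitochondria for removal, was at 131, 143 and 203 CPM against 421, 446 and 495 CPM. Vegfa, the vascular growth factor, was at 22.5, 21.5 and 30.9 CPM against 78.9, 91.2 and 87.7 CPM. In each case set 2 was tight and lay well above every library of set 1.

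Ndrg1, a stress-response gene, had the largest change of the list at 3.03 (1.26, 1.25 and 2.70 CPM against 9.47, 14.5 and 18.1 CPM). Car9, the carbonic anhydrase often used as a marker of hypoxic cells, was at 3.90, 0.91 and 2.83 CPM against 14.9, 13.8 and 21.0 CPM (log2 fold change 2.70, SE 0.336, edgeR adjusted p = 3.94e-05). The collagen prolyl hydroxylase genes P4ha2 and P4ha1 were higher by 2.42 and 1.16, and Ankrd37 by 1.42. These members also had no overlap between the sets. The 2 members not called were Ddit4, a stress inhibitor of mTOR, at 0.15 and the MYC antagonist Mxi1 at -0.25.

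Hypoxia-inducible factors bind short sites in DNA, of which ACGTG is a common core. The 250 bases before the transcript start in the RefSeq GRCm38.p6 promoter table were searched for ACGTG on both strands. Other forms of the core were not searched, so a window without ACGTG can still hold a site. The motif overlaps the E-box CACGTG, which other factors bind, and is short enough to occur often. It was present in 16.6% of all 27025 promoters and in 22.0% of the 9288 promoters that matched a tested gene. It was found for 8 of the 14 hypoxia members that the promoter set covers (57.1%), and also for 9 of 20 glycolysis members (45.0%) and for 6 of 17 immediate early genes (35.3%). Windows of Vegfa, Pdk1, Adm, Kdm3a, Higd1a and Mxi1 did not hold these letters, and all of these genes but Mxi1 were called higher. The window of Ddit4, which was not called, did hold them. A match is a description of the sequence and no evidence of binding. The windows of 4 members that were higher together are shown, 5′ to 3′ on the strand of the gene, with ACGTG or its reverse complement in capitals.
Car9, chr4:43506776-43507025, plus strand: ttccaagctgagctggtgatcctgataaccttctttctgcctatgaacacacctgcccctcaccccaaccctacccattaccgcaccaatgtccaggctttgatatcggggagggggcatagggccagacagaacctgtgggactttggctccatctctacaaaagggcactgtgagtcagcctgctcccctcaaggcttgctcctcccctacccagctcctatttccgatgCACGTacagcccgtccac
P4ha1, chr10:59323046-59323295, plus strand: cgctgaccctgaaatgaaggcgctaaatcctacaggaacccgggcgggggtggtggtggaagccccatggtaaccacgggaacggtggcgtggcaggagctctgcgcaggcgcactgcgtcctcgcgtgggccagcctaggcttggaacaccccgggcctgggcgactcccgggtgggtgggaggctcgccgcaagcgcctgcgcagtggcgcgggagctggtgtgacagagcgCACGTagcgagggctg
Bnip3, chr7:138909507-138909756, minus strand: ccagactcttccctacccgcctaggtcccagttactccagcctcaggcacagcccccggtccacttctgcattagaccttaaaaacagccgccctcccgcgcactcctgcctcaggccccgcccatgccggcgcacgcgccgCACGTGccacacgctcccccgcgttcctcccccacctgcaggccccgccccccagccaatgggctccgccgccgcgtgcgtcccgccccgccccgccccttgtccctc
Ankrd37, chr8:45999851-46000100, minus strand: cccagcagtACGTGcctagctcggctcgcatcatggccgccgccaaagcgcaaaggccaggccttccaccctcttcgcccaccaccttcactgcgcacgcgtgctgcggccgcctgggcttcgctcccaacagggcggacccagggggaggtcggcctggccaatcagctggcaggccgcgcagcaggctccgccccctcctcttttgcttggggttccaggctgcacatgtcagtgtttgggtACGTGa
The match lies 14 bases before the start in Car9 and 12 in P4ha1. Bnip3 has the letters of both strands overlapping in a CACGTG, and Ankrd37 has 2 separate matches, the nearer of them 2 bases before the start. The start meant here is the one used for the window, which can lie inside the gene. The Ankrd37 window lies within the RefSeq span of its gene (45996908 to 46000414), and the P4ha1 window runs past the gene start at 59323197.

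Glycolytic genes were mostly higher as well, with 14 of 21 members higher, 3 lower and a median of 0.59. The share lower, 14.3%, was near the 13.4% of all genes. Hk2, the inducible hexokinase that starts glycolysis, was at 26.3, 20.9 and 22.9 CPM against 90.1, 95.6 and 96.8 CPM (log2 fold change 2.01, SE 0.11, edgeR adjusted p = 1.16e-08). Gpi1, the next enzyme, was at 493, 525 and 511 CPM against 1272, 1470 and 1516 CPM. Ldha, which turns pyruvate into lactate, was at 1464, 1560 and 1645 CPM against 3057, 3129 and 2979 CPM. All were without overlap, and the spread within a set was small beside the gap. The glucose transporter gene Slc2a1 was higher by 1.07 and Pgk1 by 0.68. The heart-type lactate dehydrogenase gene Ldhb moved the other way, from 409, 432 and 388 CPM to 197, 225 and 217 CPM (log2 fold change -0.94, edgeR adjusted p = 7.42e-07). Pkm2, the pyruvate kinase gene and the member with the most reads, was not called (0.03, edgeR adjusted p = 0.778).

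Genes of fatty acid oxidation and lipid handling were lower, with 12 of 16 members called lower, 1 higher and a median of -0.57. Cpt1a, which admits long-chain fatty acids into mitochondria, was at 90.2, 82.3 and 74.8 CPM against 38.9, 47.9 and 46.1 CPM (log2 fold change -0.90, SE 0.11, edgeR adjusted p = 3.65e-05). Acaa2 and Hadha, enzymes of the later steps, fell by 1.07 and 0.98, and the first dehydrogenase Acadvl, the member with the most reads, fell by 0.78 from 521, 503 and 446 CPM to 260, 288 and 309 CPM. Every library of set 2 was below set 1 in these genes. The fatty acid transporter gene Cd36 fell by 2.79 from a low level, and the 1 higher member was the binding protein gene Fabp3 (0.88). Several of these genes are also abundant in astrocytes, whose markers were lower in set 2, and the part of that in the result was not tested.

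Nuclear genes of the respiratory chain were called lower in part, by small amounts. Of 36 complex I subunits 19 were called lower and 0 higher, with a median of -0.22, and 34 lay below 0. The count of lower members was 9 without replicate 2 and 12 without replicate 6. Ndufb11, an accessory subunit, was at 283, 287 and 287 CPM against 203, 201 and 214 CPM (log2 fold change -0.47, edgeR adjusted p = 0.00018), while Ndufc2, with the most reads, was not called (0.11, edgeR adjusted p = 0.252). Ndufv1, which binds NADH, had the largest change at -0.56.

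Of 38 tested subunits of complexes II to V, 11 were lower and 0 higher, with a median of -0.18. That count was 5 to 7 without replicate 2, 3, 4, 5 or 6. Uqcrc1, a core subunit of complex III, fell by 1.06 (141, 119 and 92.1 CPM against 53.6, 57.7 and 57.2 CPM) and the ATP synthase subunit gene Atp5a1 by 0.49. Among 7 tested mRNAs of the mitochondrial genome 2 were lower, led by mt-Cytb at 10972, 11673 and 11613 CPM against 8565, 8883 and 8445 CPM. mt-Nd4 was the other, a count of 1 without replicate 2, 4 or 6.

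Cholesterol synthesis genes were higher, with 15 of 23 tested members called higher, 0 lower and a median of 0.35. Hsd17b7, an enzyme of the later steps, was at 77.9, 78.1 and 67.2 CPM against 155, 144 and 159 CPM (log2 fold change 1.03, SE 0.0898, edgeR adjusted p = 1.35e-06). The sterol sensor gene Insig1 was at 76.6, 78.6 and 78.0 CPM against 125, 119 and 144 CPM (log2 fold change 0.74). The 2 sets stood apart in both genes with little spread. Hmgcs1, with the most reads, was higher by 0.33. Fatty acid synthesis genes had 5 of 16 members higher and 1 lower (3 higher without replicate 2, 5 or 6, and 0 lower without any 1 of replicates 2 to 6). The lower member was the desaturase gene Fads1 at -0.24. Elovl6, which lengthens fatty acids, was at 0.47 and Acsl3 at 0.53, while Scd2, with the most reads, was at -0.16 (edgeR adjusted p = 0.0825).

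Serine and one-carbon genes were called in both directions, 3 of 12 each way (25%, against 13.2% higher and 13.4% lower of all genes). The mitochondrial folate enzyme gene Mthfd2 was higher by 0.69 and Phgdh, which starts serine synthesis, was lower at -0.63. Counts fell to 1 each way without replicate 2 or 4. Psat1, the member with the most reads, was at -0.13 and not called.

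**Figure D3:**
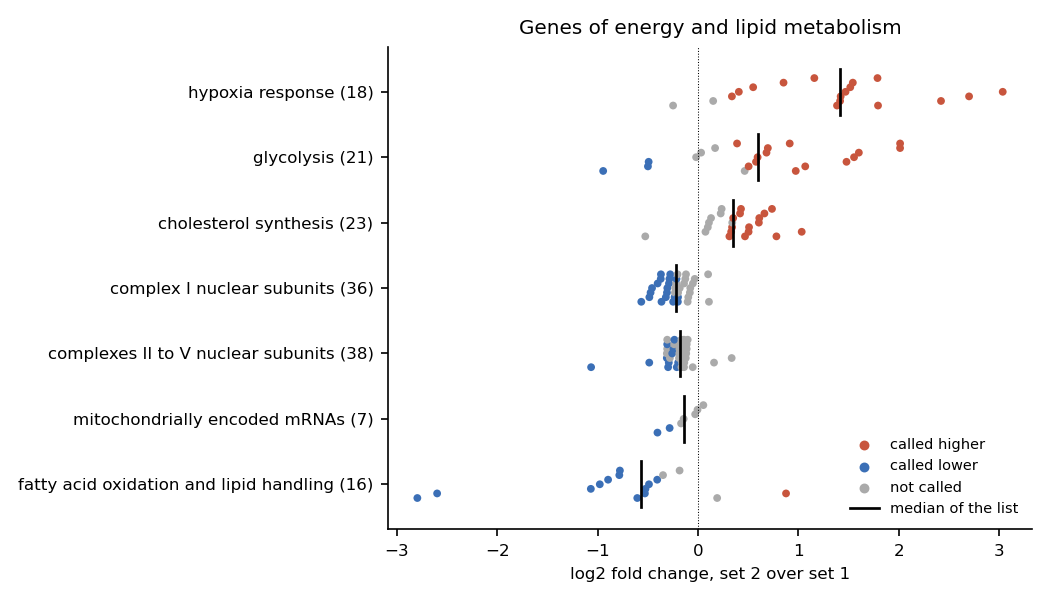
Each point is 1 tested gene of an energy or lipid metabolism list, with its log2 fold change of set 2 over set 1 on the x axis, coloured by call, and black bars are the list medians. Hypoxia (1.42) and glycolysis (0.59) medians lie to the right of 0, respiratory complexes (-0.22 and -0.18) just to the left, and fatty acid oxidation (-0.57) farther left.

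Ccnd1, the D-type cyclin that growth factors induce in G1 (chromosome 7, 144929931 to 144939831), was at 142, 100.9 and 126 CPM in set 1 and 274, 262 and 264 CPM in set 2 (123 ± 20.9 against 267 ± 6.70, SD, n = 3 each). The log2 fold change was 1.12 (SE 0.105, edgeR adjusted p = 2.87e-06). Set 2 was both higher and tighter than set 1. Of 16 tested G1 cyclins and CDK inhibitors 3 were higher (18.8%) and 2 lower (12.5%), shares near the 13.2% and 13.4% of all genes. The CDK4 inhibitor gene Cdkn2b was higher by 1.25, and Ccnd2, the D-type cyclin with the most reads here, at 3884, 3511 and 2900 CPM against 4178, 4220 and 4493 CPM, was higher by 0.32 (edgeR adjusted p = 0.0117). The Ccnd2 value was 0.22 without replicate 3, and the call was lost without replicate 6 (adjusted p = 0.0513). Cdkn2c, another inhibitor, was lower at -0.65, and the other lower gene was Cdk4; 1 gene was lower without replicate 1, 2, 3, 5 or 6.

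Genes of DNA replication had 11 of 26 members higher and 1 lower, with a median of 0.23 and a largest upward change of 0.56. Mcm3, a subunit of the replicative helicase, was at 324, 291 and 262 CPM against 411, 383 and 371 CPM (log2 fold change 0.41, SE 0.0844, edgeR adjusted p = 0.0024). Rrm2, which supplies deoxynucleotides, was at 0.28, a call lost without replicate 2 (adjusted p = 0.0522). The number of higher members was 3 without replicate 2, 5 without replicate 4 and 7 without replicate 6. The lower member was the flap endonuclease gene Fen1 at -0.53, which was -0.27 without replicate 1 (adjusted p = 0.0537) and not called without replicate 5 (adjusted p = 0.0677).

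Mitotic genes differed little: 1 of 24 was called higher and 0 lower, with a median of 0.05. That gene was Kif23, a kinesin of cytokinesis, at 0.47, and the number was 2 without replicate 1, 3 without replicate 3 and 4 without replicate 6. Top2a was at 1515, 1453 and 1393 CPM against 1594, 1526 and 1448 CPM and Mki67 at 597, 560 and 560 CPM against 586, 567 and 612 CPM, with overlapping sets and no call (edgeR adjusted p = 0.492 and 0.705). Among p53 targets 5 of 16 were higher (3 without replicate 2) and 2 lower (1 without replicate 2, 4, 5 or 6). The share lower, 12.5%, was near the 13.4% of all genes. The kinase gene Plk2 was higher by 1.08, and Trp53inp1 was lower at -0.50.

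Immediate early genes, which growth factors switch on within minutes, were among the most changed. Of 21 tested members, where 25 were listed, 15 were higher, 2 lower, and the median was 2.19. Fos, a subunit of the AP-1 factor (chromosome 12, 85473890 to 85477274), was at 28.8, 21.8 and 21.1 CPM against 189, 223 and 270 CPM (log2 fold change 3.25, SE 0.144, edgeR adjusted p = 2.35e-09). Egr1, a zinc finger factor, was at 40.1, 36.9 and 51.2 CPM against 226, 210 and 230 CPM. Egr2, its relative, was at 2.25, 1.48 and 1.32 CPM against 36.0, 22.8 and 36.1 CPM. In each of these genes the lowest library of set 2 was several times above the highest of set 1. Fosb had the largest change at 5.63, from 0.11, 0.11 and 0.33 CPM to 6.85, 10.01 and 10.6 CPM. Its level in set 1 was near the floor, so the size of this change is uncertain. The lower members were Btg2 and Ier5, the latter at -0.79, a call that held without replicate 3 but was lost without each of the other 5 libraries (adjusted p = 0.0714 to 0.208).

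Genes of the FGF and EGF pathway and its ERK feedback had 11 of 19 tested members higher, 3 lower and a median of 0.44. The share lower, 15.8%, was near the 13.4% of all genes. Spry4, an inhibitor that ERK signalling induces, was at 215, 163 and 203 CPM against 561, 480 and 520 CPM (log2 fold change 1.42, SE 0.0988, edgeR adjusted p = 1.44e-07). The EGF receptor ligand gene Hbegf was at 37.8, 28.4 and 18.5 CPM against 84.9, 107 and 120 CPM. The receptor gene Fgfr3, which is also abundant in astrocytes, was lower, at 144, 172 and 137 CPM against 68.1, 81.9 and 87.6 CPM. Ligand and feedback inhibitor were thus higher and this receptor lower, each without overlap.

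**Figure D4:**
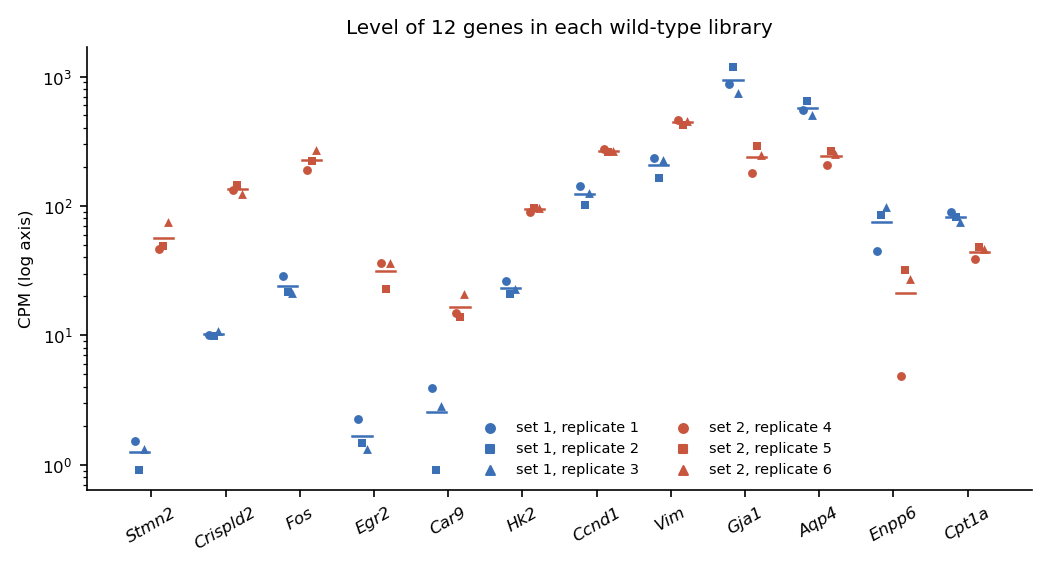
CPM (log axis) of 12 genes in each of the 6 WT libraries, set 1 in blue and set 2 in red, with a symbol for each replicate and a line at the mean of 3. Stmn2, Crispld2, Fos, Egr2, Car9, Hk2, Ccnd1 and Vim lie higher in set 2, while Gja1, Aqp4, Enpp6 and Cpt1a lie lower, with replicate 4 lowest for Enpp6 at 4.90 CPM.

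Other signalling pathways held fewer calls. The Notch pathway had 5 of 17 tested members lower and 2 higher, with a median of -0.25. The ligand gene Dll1 was at 10.9 ± 1.1 CPM against 5.76 ± 0.31 CPM (SD, n = 3 each; log2 fold change -0.92), and the cofactor gene Rbpj was at 0.12 and not called. Hes1 and Hes5 thus stood in opposite directions within the pathway. Wnt genes had 6 of 19 higher and 2 lower (1 without any 1 of replicates 1 to 5), with the secreted Dkk3 highest (6.32, 6.48 and 4.08 CPM against 44.5, 60.4 and 63.8 CPM) and the receptor-degrading ligase gene Rnf43 lowest at -2.44. BMP and TGF-beta genes had 3 of 17 higher, among them the activin subunit gene Inhba at 2.19, a call lost without each library but replicate 2 (adjusted p = 0.0741 to 0.1045), and the receptor gene Tgfbr2 at 1.83, and 2 lower (1 without replicate 2), with Id4 the lowest. Hedgehog genes had 1 of 9 called each way: the coreceptor gene Cdon was higher by 0.79, a call lost without replicate 2 and joined by another member's without replicate 4, and the receptor gene Ptch1 was lower at -0.80. The shares of the BMP and TGF-beta genes (17.6% higher and 11.8% lower) and of the Hedgehog genes (11.1% each way) were near the 13.2% and 13.4% of all genes. So were the shares of Notch genes higher (11.8%) and of Wnt genes lower (10.5%). YAP and TEAD targets had 4 of 12 higher and 1 lower, with Cyr61, a matricellular protein, at 2.86 and Amotl2 at -1.36.

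The retinoid genes that follow were chosen after their values had been seen and are a description only. The other lists too were chosen with earlier results of these data known. The receptor gene Rarb, itself induced by retinoic acid, was at 1.98, 2.84 and 2.11 CPM against 20.4, 21.7 and 20.7 CPM (log2 fold change 3.18, edgeR adjusted p = 2.72e-08). Of the enzymes that make retinoic acid, Aldh1a3 was higher by 1.90 and Aldh1a1 was lower at -1.73, from 41.8, 53.2 and 44.7 CPM to 16.6, 11.9 and 13.7 CPM. Of 14 listed retinoid genes 8 had enough reads to be tested, and 4 of these were not called.

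Stress lists were called in part. Targets of ATF4 in the integrated stress response had 8 of 22 tested members higher and 1 lower, with a median of 0.34. Asns, which makes asparagine, was at 278, 260 and 305 CPM against 400, 392 and 371 CPM (log2 fold change 0.46), the lipoprotein receptor gene Vldlr at 0.89 and Cebpb, at under 3 CPM throughout, at 2.77. The lower member was the cystine transporter gene Slc7a11, at 47.9, 63.0 and 35.1 CPM against 19.6, 28.7 and 26.0 CPM. Genes of the unfolded protein response had 6 of 16 higher (3 without replicate 5) and 1 lower, with the transcription factor gene Xbp1 at 0.95 and the chaperone gene Canx at -0.35 (2 lower without replicate 3). Heat shock genes had 1 of 9 called, the chaperone gene Hsp90aa1 at 0.22. That call was lost without any 1 of the 6 libraries (edgeR adjusted p = 0.0556 to 0.143), though another member was called without replicate 1. Antioxidant genes had 2 of 18 higher, with Nqo1 at 0.74, and 4 lower (22.2%, against 13.4% of all genes). The share higher was 11.1% in both lists, near the 13.2% of all genes. Interferon and antigen presentation genes had 4 of 16 higher (25%) and 3 lower (18.8%), against 13.2% and 13.4% of all genes. Without replicate 2 the counts fell to 2 and 1. The membrane protein gene Ifitm3 stood out at 41.7, 43.6 and 37.1 CPM against 151, 164 and 167 CPM (log2 fold change 1.98, edgeR adjusted p = 3.91e-09).

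Matrix genes had 10 of 27 tested members higher and 5 lower, with a median of 0.36, while 6 were higher without replicate 6 and 3 lower without replicate 2 or 4. Col18a1, a basement membrane collagen, was at 6.21, 5.97 and 5.53 CPM against 26.5, 16.4 and 23.1 CPM (log2 fold change 1.89, edgeR adjusted p = 5.09e-06). Fibronectin, Fn1, was at 35.01, 38.7 and 35.6 CPM against 46.0, 96.0 and 116 CPM, so replicate 4 lay close to set 1 and the other libraries of set 2 well above. Adhesion genes had 6 of 19 higher and 3 lower (15.8%, near the 13.4% of all genes). The cadherin gene Cdh11 was at 173, 183 and 168 CPM against 58.5, 77.5 and 80.1 CPM (log2 fold change -1.28), and the axonal adhesion gene L1cam was higher at under 5 CPM, a call DESeq2 did not make (adjusted p = 0.0578).

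Ribosomal protein genes shifted little. Of 44 cytosolic members 6 were higher and 0 lower, near the 13.2% of all genes, though 43 lay above 0 (median 0.19), and the number was 0 to 3 without replicate 1, 2, 4 or 5 and 14 without replicate 3. Of 38 mitochondrial members 5 were lower (13.2%, near the 13.4% of all genes) and 0 higher, led by Mrps7 at -0.47 (63.9, 62.9 and 60.3 CPM against 43.3, 46.5 and 44.8 CPM), and the number was 2 or 3 without replicate 1, 4, 5 or 6. Mettl8, the gene deleted elsewhere in the series, was at 39.0, 54.5 and 58.5 CPM against 35.9, 35.8 and 55.3 CPM and was not called (-0.26, edgeR adjusted p = 0.306). It was called without replicate 6 (-0.50, adjusted p = 0.0483). Its relative Mettl6 was higher by 0.26, a call lost without each library but replicate 3 (adjusted p = 0.0632 to 0.153).

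**Figure D5:**
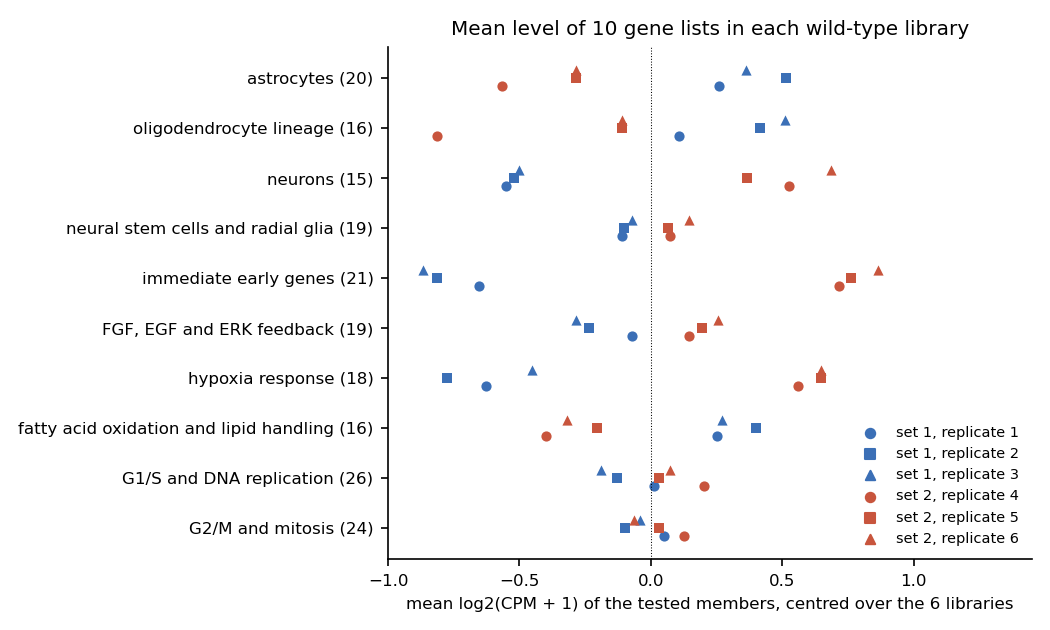
For 10 gene lists (tested members in brackets), the x axis gives the mean log2(CPM + 1) of the members in each library minus the mean over the 6 libraries, with set 1 in blue, set 2 in red and a symbol for each replicate. The sets stand apart in each list but G2/M, and replicate 4 is lowest for astrocyte (-0.57) and oligodendrocyte (-0.81) genes.

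The library means of the lists show how even each set was. On the mean log2(CPM + 1) scale, centred over the 6 libraries, hypoxia genes lay between -0.77 and -0.45 in set 1 and between 0.56 and 0.65 in set 2, and immediate early genes between -0.87 and -0.66 and between 0.71 and 0.87. Astrocyte genes lay between 0.26 and 0.52 in set 1 and at -0.57, -0.29 and -0.29 in set 2, and oligodendrocyte genes at 0.11, 0.41 and 0.51 against -0.81, -0.11 and -0.11. Replicate 1 had the lowest glial means of set 1 and replicate 4 the lowest of set 2, while G2/M means ran from -0.10 to 0.05 in set 1 and from -0.07 to 0.13 in set 2 and overlapped.

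Position and length of genes were examined over the 13041 tested genes (97.4%) that matched RefSeq. Medians of the log2 fold change by chromosome ran from -0.04 to 0.06 over 20 chromosomes, so no chromosome stood apart as a whole. Across genes, which are not independent replicates, the Spearman correlation of the fold change with the genomic span of the gene was -0.006. The share called was 11.2% higher and 11.5% lower in the shortest of 5 equal classes of span and 15.5% higher and 17.1% lower in the longest.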

How the data were processed

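The authors deposited raw read counts per gene, without normalization, for 12 RNA-seq libraries. The submitters' processing notes name STAR 2.5.2a, Trimmomatic 0.32 and bcl2fastq 2.17.1.14, and the build GRCm38. The sources used here do not give the counting program. The 6 WT columns were used. The 6 knockout columns and the HAC-seq table of m3C sites were not analysed here, and the number of columns without a sample was 0. Odd numbers made up 17.3% of the counts from 1 to 10 but 50.3% of those above 100 and up to 1000, so halved counts were an alternative. Of 26621 genes, 7335 had no read in the 6 libraries.

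In R 4.3.3, edgeR 4.0.16 kept 13392 genes (filterByExpr), scaled by TMM and tested set 2 against set 1 with its quasi-likelihood F test (two-sided). Calls are at p under 0.05 after Benjamini-Hochberg adjustment over all 13392 genes, standard errors come from the F statistic, and the biological coefficient of variation was 12.9%. List means used log2(CPM + 1). Totals of 15096888 to 18863781 counts set the counting precision. Nothing in the labels says that the replicates came from separate cultures or animals; the p-values thus rest on the spread among these 6 libraries, which could be technical. Names with WT4 and WT5 occur in both sets, with nothing to say that they are pairs.

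The members and lists were chosen with earlier results of these data known. Named genes are Gja1 and Ccnd1, the 12 largest changes each way among called genes of at least 10 CPM in one set and without overlap, and in each of 44 lists the largest called change each way, the smallest p and the most abundant member; other examples were picked after their values were seen. Results on some of these genes are not reported here. Older symbols were matched through RefSeq synonyms. Alternatives were DESeq2 1.42.0, limma 3.58.1 (voom), RLE scaling, no filter, halved counts, a test against a fold of 1.5, a block by name number and leaving out each library.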

Additional observations from a re-analysis of the deposited data

How the results depend on the processing

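Of 1763 genes called higher and 1798 called lower, the counts were 1808 and 1811 with DESeq2, 1767 and 1783 with limma voom, 1777 and 1769 with RLE scaling, 1959 and 1950 without the filter, and 1764 and 1802 with halved counts. Tested against a fold of 1.5, 392 were higher and 242 lower, and 365 and 205 of at least 1 on the log2 scale, since that test asks for a larger change. Leaving out a library gave 1274 to 1736 higher and 1242 to 1804 lower, and 494 to 581 and 267 to 361 of at least 1. Calls shared with the reported ones were 96.9% to 99.2% of them under other tools, scaling, filter and halved counts, all with the same sign. With a library left out the share was lower, from 68.4% (set 1 replicate 2) to 86.8% (set 1 replicate 3), again with the same sign. As a block, the number in the library names gave 1233 higher and 1218 lower, with 64.1% of calls shared. The names pair only WT4 and WT5 across the sets, whose deviations from their set means correlated at -0.0632 and 0.0091, so they share a number and no more is known.

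Of 139 genes named here that were called, 123 kept their direction and call under every alternative but the test against a fold of 1.5, and 87 under that as well. Many were picked for large or clear changes, so these counts do not stand for all called genes. Uncalled genes changed sign as follows: Gfap was at -0.0026 with limma voom, -0.18 with the block, -0.12 without set 1 replicate 3 and -0.26 without set 2 replicate 6; Ddit4 was at -0.088 and Pkm2 at -0.023 without set 1 replicate 3; and Pkm2 was at -0.011 without set 2 replicate 6. Leaving out each library gave -0.26 to 0.34 for Gfap, -0.088 to 0.44 for Ddit4 and -0.023 to 0.072 for Pkm2. The cause was not tested. Sets of 3 libraries were not tested for outlying libraries, and genes near the filter are measured with few reads.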

Other observations

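Several abundant genes outside the lists stood among the clearest differences between the sets; they were picked after their values were seen. Kitl, the ligand of the KIT receptor, was at 487, 418 and 444 CPM in set 1 and 2059, 2442 and 2234 CPM in set 2 (log2 fold change 2.32, SE 0.0815, edgeR adjusted p = 1.47e-10). Angpt2, a vascular ligand, was at 141, 95.1 and 102 CPM against 514, 513 and 568 CPM, and the cytidine deaminase gene Apobec1 was at 36.3, 31.1 and 26.6 CPM against 180, 228 and 232 CPM. A2m, a secreted protease inhibitor, rose by 1.91. In these genes each library of set 2 was well above each of set 1.

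Abundant genes that were lower included the lysosomal lipid activator gene Gm2a, at 864, 1024 and 934 CPM against 392, 411 and 399 CPM (log2 fold change -1.23, edgeR adjusted p = 3.45e-08), and the protease inhibitor gene Cst3, which was at -1.31. The GABA transaminase gene Abat was at 351, 361 and 263 CPM against 78.8, 106 and 106 CPM, and the GABA transporter gene Slc6a11 at 129, 147 and 81.0 CPM against 31.1, 38.3 and 56.1 CPM. The small heat shock protein gene Cryab was at 105, 115 and 114 CPM against 46.1, 25.6 and 27.4 CPM. Nnt, a mitochondrial enzyme that makes NADPH, was at 151, 100.7 and 73.9 CPM in set 1, with replicate 1 highest, and 43.1, 46.4 and 49.5 CPM in set 2.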
